A study of Rattus norvegicus with 151 samples.

Results

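The genes described here are 32 transporters, channels and marker proteins of the nephron, the tubular unit of the kidney. They were listed by nephron segment: 11 genes of the proximal tubule, 4 of the thick ascending limb, 5 of the distal convoluted and connecting tubule, 6 of the collecting duct principal cell, 2 of the intercalated cell, 3 of the podocyte and 1, Cdh16, of the whole tubule. An annotated probe set was found for 31 of the 32 genes, out of 14218 genes with such a probe set. Trpm6, a magnesium channel of the distal convoluted tubule, is named only. Where a gene had several probe sets, the one brightest in kidney was used, a choice that favours higher kidney values. Their levels were compared between kidney and liver of rats given vehicle, and then in kidney between dosed rats and vehicle rats.

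The animals were male Harlan Sprague-Dawley rats, 6 to 8 weeks old, dosed by gavage once a day for 5 days. They received MCHM (4-methylcyclohexanemethanol), crude MCHM (the industrial preparation, of which MCHM is the main component) or PPH (propylene glycol phenyl ether), the chemicals released in the West Virginia chemical spill, and each chemical had its own vehicle rats given corn oil. RNA of whole liver and kidney was measured on Affymetrix arrays, and the authors deposited log2 values made with RMA. Of 151 arrays in the series, 83 were used here: 69 kidneys and the 14 vehicle livers. The MCHM kidneys comprised 5 at 0 mg/kg, 3 at 0.1 mg/kg and 4 at each of the doses 1, 10, 100, 300 mg/kg and 500 mg/kg. The crude MCHM kidneys comprised 3 at 0 mg/kg, 2 each at 0.1, 1, 10 and 100 mg/kg, and 3 each at 300 and 500 mg/kg. The PPH kidneys comprised 5 at 0 mg/kg, 4 each at 1, 10 and 100 mg/kg, 3 at 500 mg/kg and 4 at 1000 mg/kg. The vehicle livers comprised 5 of the MCHM set, 4 of the crude MCHM set and 5 of the PPH set. The labels number the arrays, and nothing in them says that equal numbers mean the same rat, so p-values measure the spread between these samples.

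In the nephron, blood is filtered across the podocytes of the glomerulus and the filtrate then passes along segments that each carry their own transporters. The proximal tubule takes back most of the filtered sodium, phosphate, glucose, protein and water and secretes organic ions. The thick ascending limb takes up salt without water, the distal convoluted and connecting tubule adjusts sodium, magnesium and calcium, and in the collecting duct principal cells take up water and sodium while intercalated cells handle acid and base. Transcripts of these genes are therefore used as markers of the segments in whole-kidney RNA.

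One kidney, MCHM 0.1 mg/kg replicate 13, was left out because its values sit 1 row away from their probe sets. Its median r with the other kidneys was 0.401 as deposited and 0.952 after a move by 1 row. The lowest median r of any kidney used with the others used was 0.9855, and kidney array medians lay between 5.31 and 5.38. No 2 arrays held identical values. The tissue labels fitted their markers: the median of 8 hepatocyte markers was 4.05 in vehicle kidneys and 13.97 in vehicle livers. The 3' minus 5' difference of the beta-actin control probe sets, a measure of RNA integrity and labelling, averaged 1.29 in the MCHM vehicle kidneys, 2.56 in the crude MCHM vehicle kidneys and 2.70 in the PPH vehicle kidneys. Mean fat cell marker levels were 10.05 in the kidney MCHM-36 (300 mg/kg), 9.05 in MCHM-42 (500 mg/kg) and 8.27 in PPH-219 (10 mg/kg), against a median of 5.58 over the other kidneys.

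The first comparison asked how far these genes set kidney apart from liver in vehicle rats. Of the 30 members that passed the filter on low values in this comparison, 28 were higher in kidney and 2 were lower, with a median log2 difference of 4.84 (limma, adjusted p below 0.05 over 11781 genes). Among all genes tested, 49.2% were higher and 37.2% were lower in kidney, with a median difference of 0.11. The kidney and liver arrays did not overlap for 28 of these 30 members, against 44.5% of all genes, and the 2 that overlapped were Slc5a1 and Trpv5. Pvalb did not pass the filter, a log2 value of 4.68 exceeded by at least 3 arrays. Trpv5, counted among the 2 lower members, lay below that value in all 13 vehicle kidneys and in 7 of the 14 livers. It passed through liver arrays only, so its count as lower is no usable result. In liver, 11 of the 31 members stayed below that value on all 14 arrays, among them Slc12a1, Calb1, Cubn, Kcnj1, Cldn16, Aqp3, Slc9a3, Nphs1, Scnn1a and Avpr2. The differences of these genes rest on a liver signal that may be background, so their sizes are approximate and are not ranked. The genes named here passed the filter through kidney arrays only and could hardly have been counted as lower. The counts of higher and lower members thus partly follow from the filter, which was also applied to all genes. Some other members lay below the filter value in many of the 14 livers. These were Atp6v1b1 and Wt1 in 13, Slc5a1 in 11, Umod in 10, and Cdh16 and Slc12a3 in 8 each. The sizes of their differences are approximate as well. In whole tissue, fewer cells of a type and less RNA per cell cannot be told apart.

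**Figure D1:**
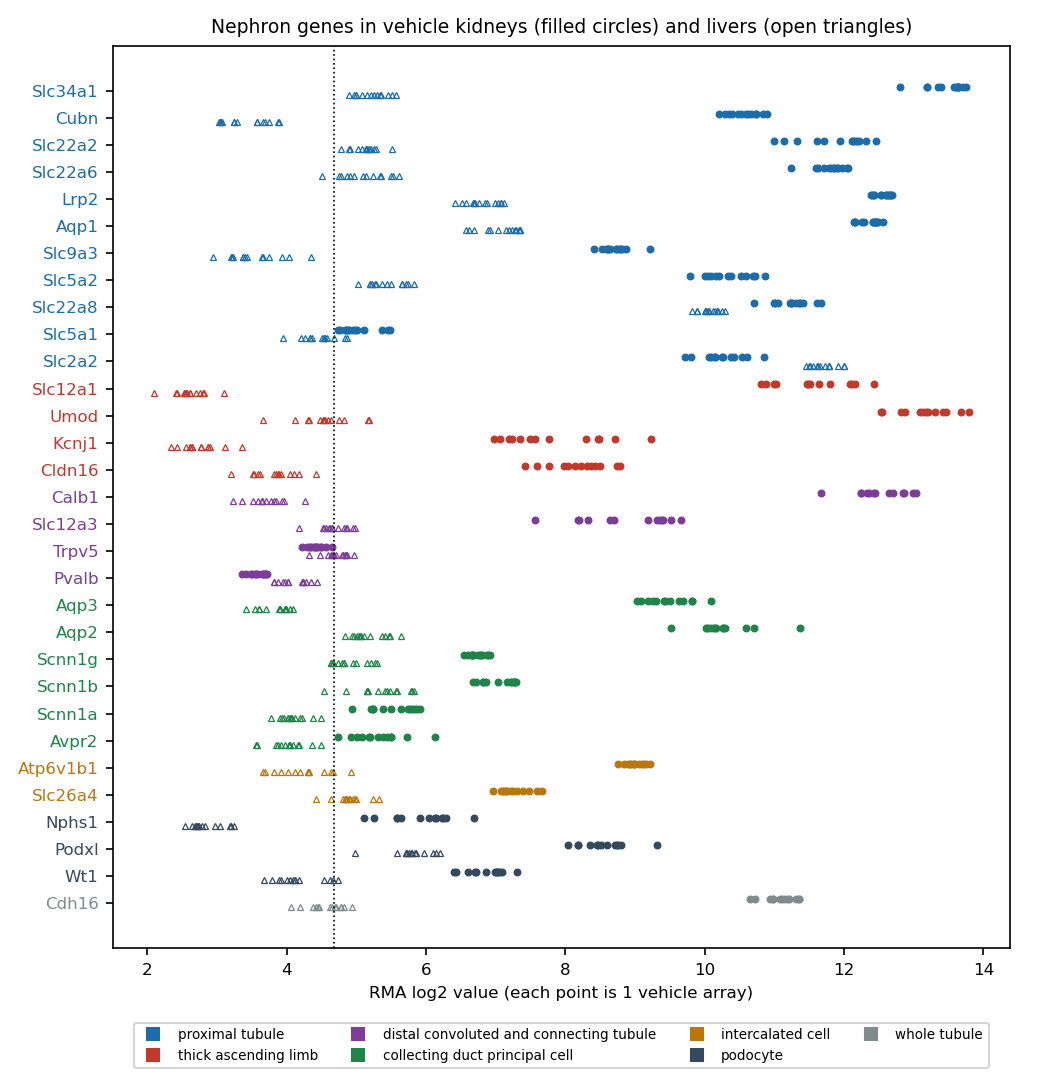
Log2 value of each nephron gene (rows, grouped and coloured by segment) in the 13 vehicle kidneys (filled circles) and 14 vehicle livers (open triangles); the dotted line is the filter value of 4.68. Kidney points lie right of all liver points for 27 rows, left of them for Slc2a2 and Pvalb, and among them for Slc5a1 and Trpv5.

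Of the 11 proximal tubule genes, 10 were higher in kidney and Slc2a2 was lower. Slc34a1, the sodium-phosphate cotransporter of the brush border, ranged from 12.80 to 13.75 with a median of 13.61 over the 13 vehicle kidneys. In the 14 vehicle livers it ranged from 4.89 to 5.56 with a median of 5.23, and the groups lay far apart. Its log2 difference was 8.26 ± 0.06 (SE), a 306-fold difference, with the smallest adjusted p of the members at 6.51e-34. The second Slc34a1 probe set averaged 6.52 in kidney and 3.43 in liver, a difference of 3.09, so the size depended on the probe set. The endocytic receptors of filtered protein had differences of 7.15 ± 0.09 (SE) for Cubn (cubilin) and 5.76 ± 0.07 (SE) for Lrp2 (megalin). Lrp2 ranged from 12.39 to 12.69 in kidney and from 6.42 to 7.12 in liver.

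Among the organic ion transporters of the proximal tubule, the cation transporter Slc22a2 (OCT2) differed by 6.73 ± 0.13 (SE) and the anion transporter Slc22a6 (OAT1) by 6.68 ± 0.10 (SE). Slc22a2 ranged from 11.00 to 12.46 in kidney, a wider span than that of Slc22a6, which ranged from 11.24 to 12.06. The second anion transporter, Slc22a8 (OAT3), differed by 1.21 ± 0.07 (SE): its liver arrays held a median of 10.05, against 11.25 in kidney. Its second probe set differed by 0.10 between the tissue means, so the 2 probe sets of Slc22a8 did not give the same size.

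The water channel Aqp1 differed by 5.30 ± 0.09 (SE) and the sodium-proton exchanger Slc9a3 (NHE3) by 5.17 ± 0.11 (SE). The second Aqp1 probe set differed by 4.05 between the tissue means. The main glucose uptake transporter of the early proximal tubule, Slc5a2 (SGLT2), differed by 4.92 ± 0.10 (SE), with a kidney range of 9.79 to 10.86 and a liver range of 5.03 to 5.83. The late proximal transporter Slc5a1 (SGLT1) differed by only 0.53 ± 0.09 (SE), and its kidney range of 4.73 to 5.48 overlapped its liver range of 3.94 to 4.86. Within the crude MCHM set alone its difference was 0.24 with an adjusted p of 0.0659. Slc2a2 (GLUT2), which carries glucose across the basolateral membrane of the proximal tubule and of the hepatocyte, went the other way. It ranged from 9.71 to 10.85 in kidney, while all 14 livers were at 11.45 or higher with a median of 11.69, and its difference was -1.44 ± 0.09 (SE), 2.72-fold lower in kidney with adjusted p = 7.31e-14.

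All 4 thick ascending limb genes were higher in kidney. The sodium-potassium-chloride cotransporter Slc12a1 (NKCC2) differed by 8.95 ± 0.14 (SE). Its kidneys ranged from 10.81 to 12.43 with a median of 11.52 and its livers from 2.09 to 3.09 with a median of 2.59. Umod, which encodes uromodulin, the most abundant protein of normal urine, differed by 8.58 ± 0.13 (SE), with kidneys between 12.53 and 13.79 and livers between 3.65 and 5.18. The potassium channel Kcnj1 (ROMK) differed by 5.01 ± 0.11 (SE) and the tight junction protein Cldn16, needed for magnesium and calcium uptake, by 4.31 ± 0.13 (SE).

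Of the 3 distal convoluted and connecting tubule genes tested, 2 were higher in kidney. The calcium-binding protein Calb1 differed by 8.81 ± 0.13 (SE), from a kidney range of 11.67 to 13.03 and a liver range of 3.23 to 4.26. The thiazide-sensitive cotransporter Slc12a3 (NCC) differed by 4.23 ± 0.11 (SE), and its kidneys were spread over more than 2 log2 units, from 7.56 to 9.66. The calcium channel Trpv5 was lower in kidney by its brighter probe set (-0.28 ± 0.06 SE, adjusted p = 7.67e-05), but only 7 of 69 kidneys exceeded the kidney filter value of 4.66 and its second probe set averaged 3.54 in kidney and 3.05 in liver, below the filter value in both. Pvalb (parvalbumin) ranged from 3.36 to 3.71 in kidney and exceeded the filter in 0 of 69 kidneys. These last 2 probe sets gave no usable signal for their segment here.

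All 6 principal cell genes were higher in kidney by the probe set brightest in kidney. For Aqp3, Avpr2 and Scnn1a all 14 livers lay below the filter value, so these sizes are approximate and the genes are not ranked. Aqp3, the basolateral water channel, differed by 5.69 ± 0.08 (SE), and Aqp2, the apical channel that vasopressin moves to the membrane, by 5.05 ± 0.12 (SE). The vasopressin receptor Avpr2 differed by 1.26 ± 0.10 (SE), with kidneys between 4.74 and 6.12 and livers between 3.56 and 4.49. The 3 subunits of the epithelial sodium channel were 3.54-fold (Scnn1g), 3.24-fold (Scnn1b) and 2.83-fold (Scnn1a) higher, with log2 SEs of 0.06, 0.11 and 0.07. For Scnn1a the choice of probe set decided the direction: the set brightest over both tissues gave -0.23, adjusted p = 0.000554. The second Avpr2 probe set averaged 3.87 in kidney and 3.99 in liver, below the filter value in both, and gives no direction. That of Scnn1g averaged 4.87 in kidney and 4.27 in liver, a difference of 0.61.

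Both intercalated cell genes were higher in kidney, the proton pump subunit Atp6v1b1 by 4.76 ± 0.11 (SE) and the chloride-bicarbonate exchanger Slc26a4 (pendrin) by 2.37 ± 0.09 (SE). Cdh16, a cadherin of the tubule epithelium, differed by 6.52 ± 0.07 (SE), with kidneys between 10.64 and 11.36 and livers between 4.07 and 4.94. All 3 podocyte genes were higher as well: the slit diaphragm protein Nphs1 (nephrin) by 3.01 ± 0.13 (SE), the surface sialoprotein Podxl by 2.75 ± 0.10 (SE) and the transcription factor Wt1 by 2.72 ± 0.11 (SE). Other probe sets of Nphs1, Podxl and Wt1 had mean values below the filter value in both tissues and are not read here.

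Further genes of each segment were read from lists set up beside the members. Of 18 other proximal tubule genes tested, 17 were higher in kidney and 1 was lower, with a median difference of 4.76. Of 8 other thick ascending limb genes, 7 were higher and 1 lower, and all 8 other principal cell genes and all 8 other intercalated cell genes were higher. The other podocyte genes divided into 5 higher and 1 lower of 6, and the other distal genes into 4 higher and 2 lower of 7. Of the lists for other cells, 0 of 8 hepatocyte genes and 0 of 7 macrophage genes were higher in kidney, and all 15 were lower. Of 7 fibroblast genes 5 were higher and 2 lower, and of 6 endothelial genes 4 were higher and 2 lower.

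The 69 kidneys also showed how much these genes varied between rats of the same dose group. The median within-group SD of the 30 members that passed the kidney filter was 0.229, against 0.145 over 11501 genes. The spread of 10 members exceeded 0.263, the 90th percentile of all genes. The widest was Slc12a1 with an SD of 0.465, followed by Slc22a2 at 0.401, Aqp2 at 0.376, Cldn16 at 0.338, Kcnj1 at 0.336 and Calb1 at 0.327. The tightest were Lrp2 at 0.0977 and Aqp1 at 0.127, both of the proximal tubule.

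Genes of the same segment varied together in some pairs and not in others. For 12 pairs, 10 of them within a segment, the deviation of each kidney from the mean of its own dose group was correlated over 69 kidneys, with 100000 permutations within dose groups and Benjamini-Hochberg adjustment over the 12 pairs. Both genes of a pair were read on the same array, so they share its RNA and its hybridisation. Umod and Slc12a1 had Pearson's r = 0.919 and Spearman's rho = 0.902 (both adjusted p = 4e-05, from 1e-05, the smallest p that these permutations can give), and r = 0.910 without the 2 kidneys farthest out in Umod. Within the MCHM, crude MCHM and PPH sets r was 0.938, 0.928 and 0.886. A kidney high in uromodulin transcript was also high in the cotransporter of the same segment, in every set.

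Umod and Kcnj1 gave r = 0.656 and rho = 0.637 (both permutation adjusted p = 4e-05) and r = 0.618 without 2 kidneys; within the PPH set alone r was 0.327 with adjusted p = 0.347, against 0.830 in the MCHM set and 0.720 in the crude MCHM set. In the proximal tubule, Slc34a1 and Slc22a6 gave r = 0.789 and rho = 0.746 (both permutation adjusted p = 4e-05), r = 0.738 without 2 kidneys, and r of 0.731, 0.920 and 0.774 within the MCHM, crude MCHM and PPH sets. Slc34a1 and Slc5a1, the early and late proximal pair, gave r = 0.330 (adjusted p = 0.0549) and rho = 0.329 (adjusted p = 0.0468), with r = 0.294 without 2 kidneys. The r of that pair did not pass the adjustment.

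Slc12a3 and Calb1 of the distal segments gave r = 0.579 (permutation adjusted p = 0.00045), rho = 0.490 (adjusted p = 0.00162) and r = 0.533 without 2 kidneys. Within the sets their r was 0.670 for MCHM, 0.669 for crude MCHM and 0.339 for PPH, and only the MCHM value passed the adjustment. That value fell to 0.388 without 2 kidneys, and its rho of 0.507 did not pass (adjusted p = 0.0522). The podocyte pair Nphs1 and Podxl gave r = 0.428 (adjusted p = 0.0024), rho = 0.376 (adjusted p = 0.0108) and r = 0.425 without 2 kidneys; within the sets r was 0.581, 0.417 and 0.295 for MCHM, crude MCHM and PPH, of which the MCHM r passed and its rho of 0.469 did not (adjusted p = 0.0522). The collecting duct pairs were weaker: r = 0.262 for Aqp2 and Aqp3 (rho = 0.257, adjusted p = 0.0871 and 0.0914, r = 0.216 without 2 kidneys) and r = 0.189 for Aqp2 and Scnn1g (rho = 0.184, adjusted p = 0.160 and 0.197, r = 0.196 without 2 kidneys). The 2 pairs with a gene below the filter, Slc12a3 with Pvalb and Calb1 with Trpv5, gave r of -0.05 each.

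Across segments, Slc34a1 and Aqp2 gave a negative r of -0.38 (permutation adjusted p = 0.0519) and rho of -0.33 (adjusted p = 0.0546), and r = -0.26 without 2 kidneys, so this relation did not pass the adjustment. Slc34a1 and Nphs1 gave r = 0.371 (adjusted p = 0.0449), rho = 0.377 (adjusted p = 0.0186) and r = 0.367 without 2 kidneys, but within the sets r was 0.179, 0.673 and 0.300 for MCHM, crude MCHM and PPH and none of the 3 r passed. In all, r passed for 6 of the 12 pairs, 1 of them across segments. No share over other gene pairs was computed, so the count is no result about segments.

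**Figure D2:**
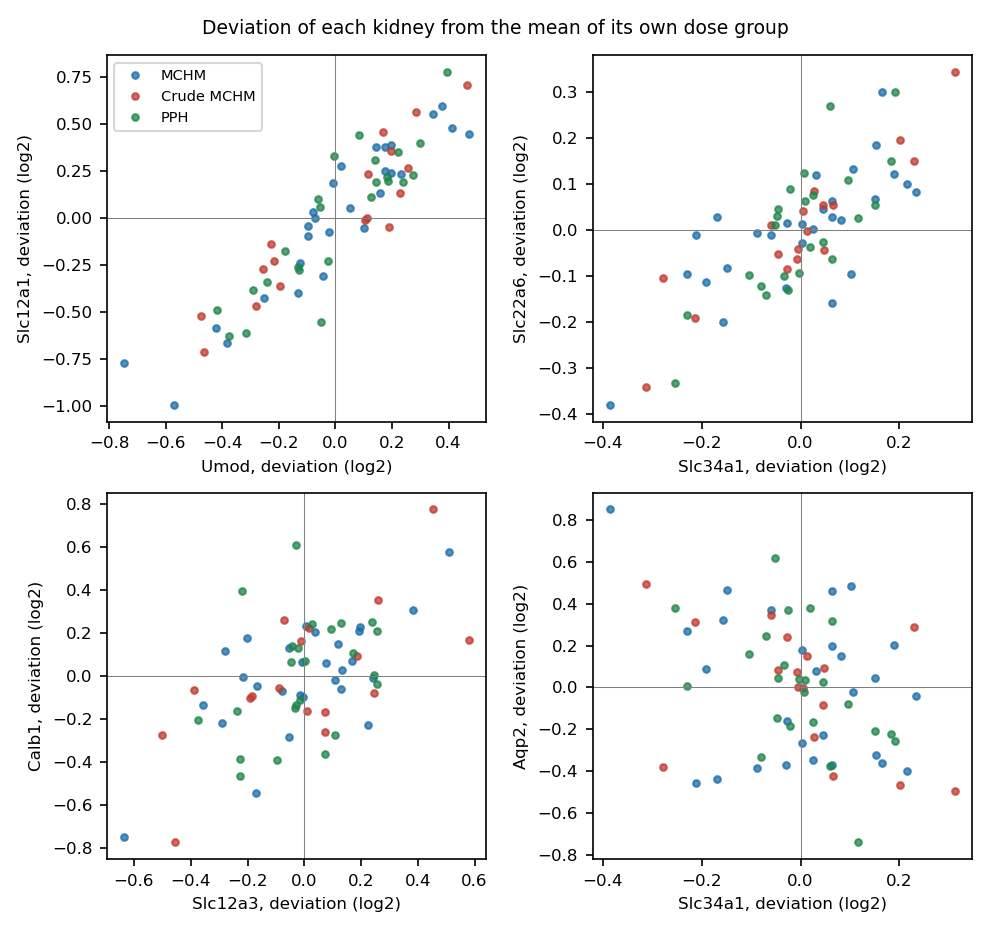
Each point is 1 of 69 kidneys, placed by its deviation (log2) from the mean of its own dose group for 2 genes, and coloured by chemical set. The Umod and Slc12a1 points follow a line (r = 0.919), Slc34a1 and Slc22a6 a looser one (r = 0.789), Slc12a3 and Calb1 a broad cloud (r = 0.579), and Slc34a1 and Aqp2 a cloud sloping down (r = -0.38).

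Promoter sequences were read from RefSeq for the pair that varied most closely together, for Slc34a1 as the member with the smallest p between the tissues, and for Slc2a2 as the only member called in a dose comparison. RefSeq promoters were found for 28 of the 32 members, and the 250 bases before the transcript start are printed 5′ to 3′ on the gene's strand of build GRCr8; of the 2 entries for Slc12a1 the first is printed. Capitals mark TATAAA, letters found in TATA boxes, and GTTAAT, part of the recognition site of HNF1 factors of the proximal tubule and liver. Both strands were searched, and no 2 of the matches marked here overlap. The distance of a match from the transcript start was not weighed, so a TATAAA match is not by itself a TATA box. GTTAAT was found in 6.45% of 33469 promoters of this length and in those of Slc34a1, Aqp2 and Slc22a8. TATAAA was found in 12.9% of them and in those of Aqp1, Aqp3, Avpr2, Kcnj1, Slc12a3, Slc34a1 and Umod. The Slc34a1 window (chr17:9238984-9239233, minus strand) held 2 matches to GTTAAT and 1 to TATAAA, and the Umod window (chr1:183261017-183261266, minus strand) held 2 to TATAAA. The Slc12a1 window (chr3:132859409-132859658, plus strand) and the Slc2a2 window (chr2:113540120-113540369, plus strand) held neither, which says only that these letters are not in these windows.
Slc34a1: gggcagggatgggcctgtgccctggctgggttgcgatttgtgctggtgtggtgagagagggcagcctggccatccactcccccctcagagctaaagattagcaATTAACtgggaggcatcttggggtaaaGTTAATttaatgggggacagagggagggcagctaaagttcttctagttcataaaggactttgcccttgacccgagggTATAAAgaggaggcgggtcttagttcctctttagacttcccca
Umod: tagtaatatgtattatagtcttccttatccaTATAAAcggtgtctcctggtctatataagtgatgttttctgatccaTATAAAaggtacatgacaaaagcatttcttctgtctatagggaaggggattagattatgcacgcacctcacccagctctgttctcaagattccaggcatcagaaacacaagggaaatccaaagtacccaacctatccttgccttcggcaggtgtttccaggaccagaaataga
Slc12a1: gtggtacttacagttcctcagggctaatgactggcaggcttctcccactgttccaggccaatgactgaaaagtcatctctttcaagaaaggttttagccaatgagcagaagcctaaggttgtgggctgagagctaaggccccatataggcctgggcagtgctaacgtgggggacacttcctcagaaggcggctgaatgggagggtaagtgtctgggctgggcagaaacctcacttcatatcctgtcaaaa
Slc2a2: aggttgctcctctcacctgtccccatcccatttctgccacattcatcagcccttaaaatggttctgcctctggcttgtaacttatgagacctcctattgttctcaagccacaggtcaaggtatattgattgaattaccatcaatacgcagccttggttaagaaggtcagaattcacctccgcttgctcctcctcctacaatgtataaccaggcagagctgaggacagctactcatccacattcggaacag

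The vehicle kidneys of the 3 sets were not alike for all members. Over the 30 members above the kidney filter the median range of the 3 set means was 0.366, against 0.212 over 11501 genes. It was over 1 log2 unit for 2 members, Kcnj1 and Slc12a3 (6.67%, against 0.974% of all genes), beside the wider spread of the members between kidneys of 1 group given above. Kcnj1 averaged 8.64 ± 0.36 (SD, n = 5) in the MCHM set, 7.33 ± 0.40 (SD, n = 3) in the crude MCHM set and 7.33 ± 0.21 (SD, n = 5) in the PPH set. The lowest MCHM vehicle kidney, at 8.30, lay above the highest of the others, at 7.77. Slc12a3 went the other way, averaging 8.20 ± 0.41 (SD, n = 5) in the MCHM set, 9.14 ± 0.44 (SD, n = 3) in the crude MCHM set and 9.41 ± 0.18 (SD, n = 5) in the PPH set. Its MCHM kidneys reached 8.70 and overlapped the lowest crude MCHM kidney at 8.64.

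Scnn1a averaged 5.20 ± 0.16 (SD, n = 5) in the MCHM vehicle kidneys, 5.82 ± 0.09 (SD, n = 3) in the crude MCHM ones and 5.72 ± 0.15 (SD, n = 5) in the PPH ones. Slc34a1 averaged 13.18 ± 0.24 (SD, n = 5), 13.64 ± 0.06 (SD, n = 3) and 13.66 ± 0.06 (SD, n = 5) in the same order. The MCHM vehicle kidneys did not overlap those of the other sets for 3 of 31 members, Kcnj1, Scnn1a and Slc34a1, against 11.7% of all genes, a share near that background and so no result about these genes as a group. The sets also differed in the beta-actin measure given above, with MCHM vehicle kidneys between 1.26 and 1.31 and all others at 2.17 or higher; its part in these differences was not tested. The set of an array and its chemical cannot be told apart, so each dosed group was compared with its own vehicle kidneys only.

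**Figure D3:**
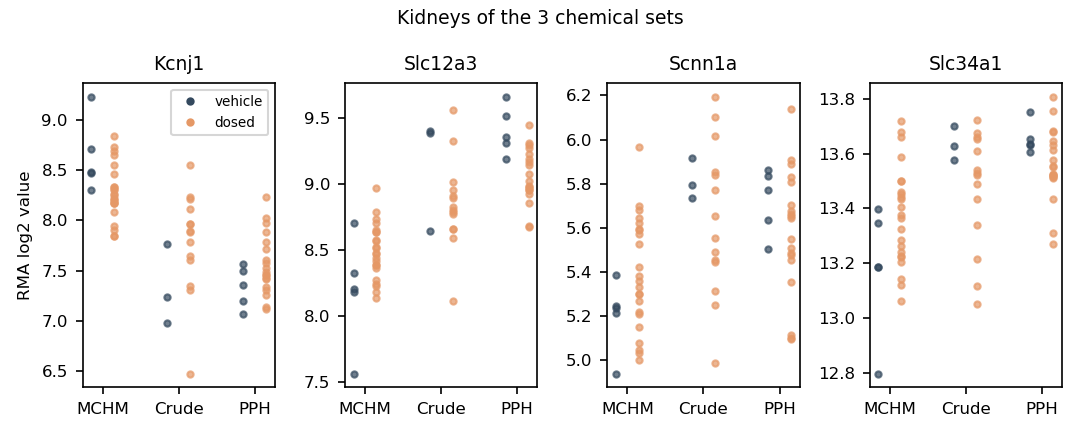
Log2 value of Kcnj1, Slc12a3, Scnn1a and Slc34a1 in each kidney of the MCHM, crude MCHM and PPH sets, with vehicle kidneys in dark blue and dosed kidneys in orange. The MCHM vehicle kidneys lie above the others for Kcnj1 and below them for Scnn1a and Slc34a1; for Slc12a3 they overlap 1 crude MCHM vehicle kidney.

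The second comparison asked whether 5 days of dosing changed these genes in kidney. Across 17 dose groups set against their own vehicle kidneys, 1 of 499 differences was called, that of Slc2a2 at 1000 mg/kg PPH. At an unadjusted p below 0.05 there were 63 member differences, or 12.6%, against 6.76% of 191278 differences over all genes, and 12 differences exceeded 1.5-fold, or 2.4%, against 0.972%. Doses of 1 chemical share their vehicle kidneys, so these counts are not over independent comparisons. The median absolute log2 difference was 0.146 for members and 0.078 for all genes, beside the wider spread between kidneys given above.

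By chemical, 0 of 30 members were called at any of the 6 doses of MCHM, where 0.0177% of all genes were called at 500 mg/kg and 0% at the other doses (limma; 1 to 8 members had an unadjusted p below 0.05). For crude MCHM 0 of 29 members were called at any dose, as were 0% of all genes, with 1 to 7 members below an unadjusted 0.05. For PPH 0 of 29 members were called at 1, 10, 100 and 500 mg/kg, again with 0% of all genes and 2 to 9 members below an unadjusted 0.05. At 1000 mg/kg PPH 1 of 29 was called, with 5 below an unadjusted 0.05, beside 2.03% of all genes, under which about 1 call among 29 genes is no result about the members as a group. For a slope over dose steps, 0 members were called for any chemical (1, 3 and 5 members below an unadjusted 0.05 for MCHM, crude MCHM and PPH), with background shares of 0.124% for MCHM, 0% for crude MCHM and 1.58% for PPH. For the mean of all doses 0 members were called (6, 2 and 8 below an unadjusted 0.05), with background shares of 0%, 0% and 0.124%. Below an unadjusted 0.05 over all genes were 847 of 11277, 606 of 11216 and 1127 of 11264 for these means. For the slopes these counts were 1062, 988 and 1461 of the same totals. At single doses they were 514 to 1047 for MCHM and 358 to 1406 for crude MCHM. For PPH they were 324 to 927 up to 500 mg/kg and 1739 at 1000 mg/kg.

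The precision of these comparisons differed by group size and by gene. At 500 mg/kg MCHM the 95% interval of the difference lay within 1.5-fold either way for 23 of 30 members, against 92.6% of all genes. At 1000 mg/kg PPH it did so for 22 of 29 members, against 90.7%, and at 500 mg/kg crude MCHM, with 3 against 3 kidneys, for 12 of 29 members, against 79.4%. For the members whose interval reached beyond 1.5-fold, a change of that size was thus not excluded.

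**Figure D4:**
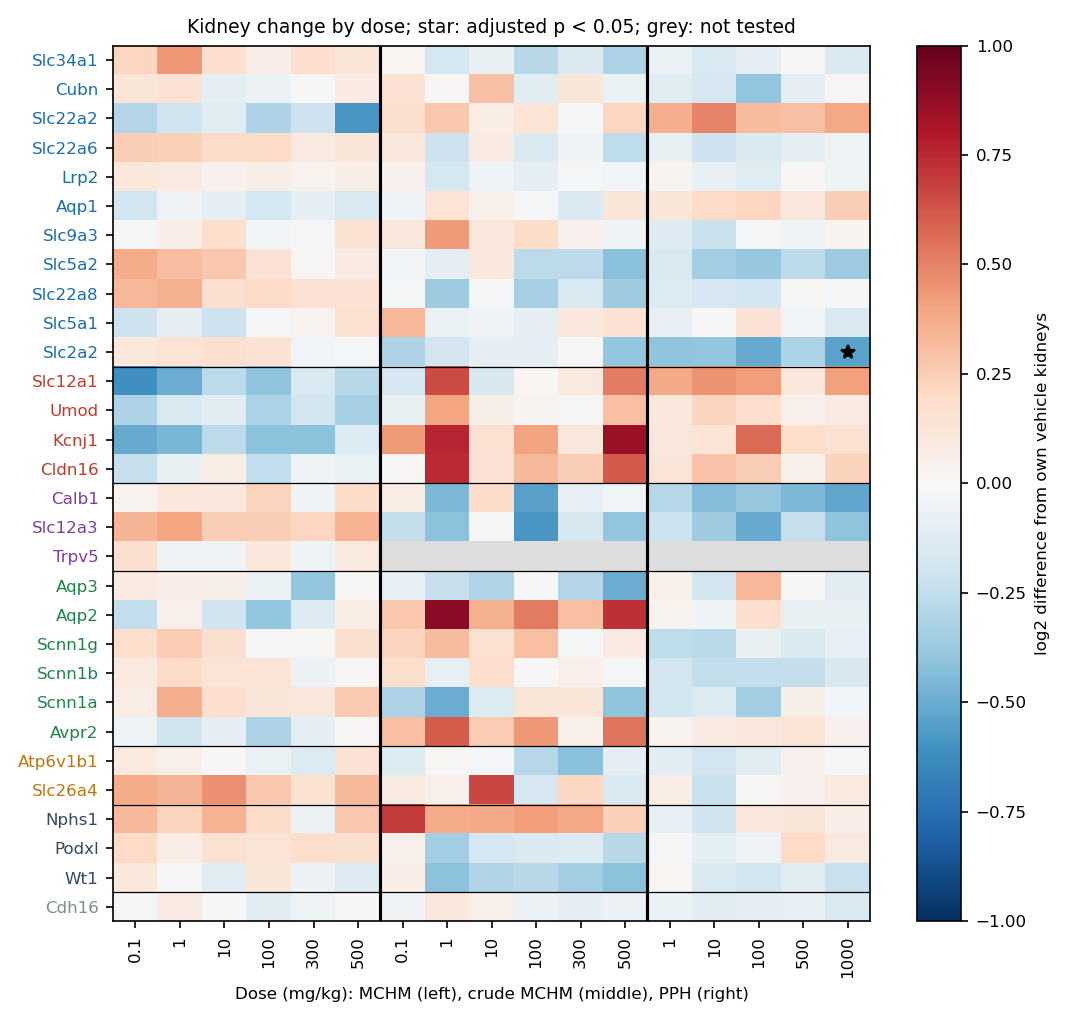
Log2 difference of each nephron gene (rows, by segment) from the vehicle kidneys of the same set at each dose (columns), on a scale from -1 to 1. The star marks the only called difference, Slc2a2 at 1000 mg/kg PPH, and Trpv5 was not tested in the crude MCHM and PPH sets.

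In the proximal tubule, 187 differences over 11 genes had a median size of 0.135, and 1 exceeded 1.5-fold: Slc22a2 at 500 mg/kg MCHM, with a log2 difference of -0.59 (adjusted p = 0.426). That group holds the kidney MCHM-42, whose Slc22a2 value of 10.65 was the lowest of the 4 and whose fat cell markers were high; the part of that kidney's fat cell RNA in the difference was not tested. Slc22a2 differences lay between -0.59 and -0.12 at the 6 MCHM doses and between 0.29 and 0.50 at the 5 PPH doses, none called. Cubn had -0.40 at 100 mg/kg PPH (adjusted p = 0.36) and Slc34a1 0.43 at 1 mg/kg MCHM (adjusted p = 0.397). Lrp2 stayed within -0.18 and 0.10 at all 17 doses, Aqp1 within -0.19 and 0.24, and Slc22a6 within -0.25 and 0.24. Slc5a2 lay between -0.42 and 0.37, Slc22a8 between -0.36 and 0.36, Slc5a1 between -0.21 and 0.33 and Slc9a3 between -0.22 and 0.43.

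In the thick ascending limb 6 of 68 differences exceeded 1.5-fold, and none was called. Kcnj1 ranged from -0.50 at 0.1 mg/kg MCHM to 0.86 at 500 mg/kg crude MCHM (adjusted p = 0.353), and Slc12a1 from -0.61 at 0.1 mg/kg MCHM to 0.65 at 1 mg/kg crude MCHM. Averaged over all doses, Kcnj1 differed by -0.36 for MCHM, 0.45 for crude MCHM and 0.23 for PPH. Slc12a1 differed by -0.37 for MCHM, 0.16 for crude MCHM and 0.35 for PPH. In vehicle kidneys Kcnj1 was highest in the MCHM set, as given above. Slc12a1 vehicle kidneys overlapped between the sets, at 10.88 to 12.43 for MCHM, 10.99 to 12.08 for crude MCHM and 10.81 to 11.65 for PPH. Umod ranged from -0.33 to 0.40 and Cldn16 from -0.25 to 0.75 over the 17 doses.

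In the distal convoluted and connecting tubule 0 of 40 differences exceeded 1.5-fold. Slc12a3 had its lowest difference at 100 mg/kg crude MCHM, -0.58 on 2 kidneys at 9.02 and 8.11 (adjusted p of nearly 1), and was below its vehicle mean at all 6 crude MCHM doses. It was also below it at all 5 PPH doses, by -0.51 at 100 mg/kg (adjusted p = 0.36) and by -0.40 at 1000 mg/kg (adjusted p = 0.098), and above it at all 6 MCHM doses, by 0.22 to 0.39. By their means, the PPH vehicle kidneys were the highest in Slc12a3 and the MCHM vehicle kidneys the lowest. Calb1 likewise had its lowest difference at 100 mg/kg crude MCHM, -0.54 on 2 kidneys at 12.75 and 11.20, the lower one being the same kidney, Crude_MCHM-132, as for Slc12a3. Over the 6 crude MCHM doses Calb1 lay between -0.54 and 0.19. It differed by -0.52 at 1000 mg/kg PPH (adjusted p = 0.18) and by -0.29 to -0.45 at the lower PPH doses. Trpv5, tested in the MCHM set only, lay between -0.05 and 0.16. With limma, neither Slc12a3 nor Calb1 was called in any dose group, in the slope or in the mean of all doses.

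In the principal cell list 3 of 102 differences exceeded 1.5-fold, all in the crude MCHM set: Aqp2 by 0.91 at 1 mg/kg and by 0.73 at 500 mg/kg, and Avpr2 by 0.61 at 1 mg/kg. The smallest adjusted p of these genes was 0.290, for Avpr2 at 500 mg/kg crude MCHM with a difference of 0.54. The crude MCHM group at 1 mg/kg held only 2 kidneys. The 3 vehicle kidneys of that set ranged from 9.52 to 10.29 in Aqp2 and from 4.92 to 5.38 in Avpr2. The sodium channel subunits Scnn1b and Scnn1g stayed within -0.24 and 0.19 and within -0.27 and 0.32 at all doses, Aqp3 within -0.49 and 0.33, and Scnn1a within -0.50 and 0.36. Of the intercalated cell genes, Slc26a4 reached 0.67 at 10 mg/kg crude MCHM, measured on 2 kidneys (adjusted p of nearly 1), and Atp6v1b1 reached -0.42. The podocyte gene Nphs1 was above its vehicle mean at all 6 crude MCHM doses, by 0.24 to 0.70, against 3 vehicle kidneys with an SD of 0.64, and was not called at any. Wt1 lay between -0.41 and 0.12, Podxl between -0.34 and 0.20, and Cdh16 between -0.15 and 0.10.

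Of the other genes of the nephron lists, 0 were called in any dose group or slope of any chemical. Of the lists for other cells, 1 gene was called, the macrophage gene Adgre1, with -0.80 at 1000 mg/kg PPH (adjusted p = 0.0204) and -0.13 per step in the PPH slope (adjusted p = 0.0378), named after its values were seen. None of the 8 tubule injury genes tested was called at that dose, and their median difference was -0.06.

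Slc2a2 was the member called. In the PPH vehicle kidneys its values were 10.15 in PPH-202, 10.26 in PPH-203, 10.54 in PPH-205, 10.42 in PPH-206 and 10.15 in PPH-208. At 1000 mg/kg they were 9.65 in PPH-233, 10.17 in PPH-234, 9.66 in PPH-236 and 9.60 in PPH-237. Thus 3 of the 4 dosed kidneys lay below every vehicle kidney and PPH-234 lay among them, so the groups overlapped. Slc2a2 fell by 0.53 on the log2 scale (SE 0.13, 95% interval -0.80 to -0.27), or 1.45-fold, with a limma adjusted p of 0.0260.

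At 1 mg/kg the values of Slc2a2 were 9.89, 9.77, 9.81 and 10.13, at 10 mg/kg 9.77, 10.00, 9.70 and 10.16, and at 100 mg/kg 9.97, 9.87, 9.63 and 9.73. At 500 mg/kg they were 10.17, 10.03 and 9.76. All 19 PPH-dosed kidneys lay below the vehicle mean of 10.30, and 16 of the 19 below the lowest vehicle kidney. The differences were -0.41 at 1 mg/kg, -0.40 at 10 mg/kg, -0.50 at 100 mg/kg and -0.32 at 500 mg/kg, and none of these was called (adjusted p = 1.0, 0.566, 0.36 and 0.946). These comparisons share the 5 vehicle kidneys. The slope over dose steps was -0.07 per step (adjusted p = 0.117) and the mean of all doses differed by -0.43 (adjusted p = 0.0589).

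In the other sets Slc2a2 averaged 10.16 ± 0.30 (SD, n = 5) in the MCHM vehicle kidneys and 10.15 ± 0.16 (SD, n = 4) at 500 mg/kg MCHM, and 8 of 23 dosed MCHM kidneys lay below the vehicle mean. In the crude MCHM set it averaged 10.31 ± 0.57 (SD, n = 3) in vehicle kidneys and 9.93 ± 0.28 (SD, n = 3) at 500 mg/kg, and 12 of 14 dosed kidneys lay below the vehicle mean. Neither set gave a called difference.

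The call at 1000 mg/kg PPH was lost without PPH-205 (adjusted p = 0.0844), PPH-206 (0.0694), PPH-233 (0.0942), PPH-236 (0.101) or PPH-237 (0.0660), each left out alone, and also with array weights (0.0508) and in 1 fit for all chemicals (0.0675); the difference stayed between -0.67 and -0.47 over all 16 alternatives. Without PPH-234 both the slope (-0.09 per step, adjusted p = 0.0242) and the mean of all doses (-0.46, adjusted p = 0.0303) were called. The beta-actin measure ranged from 2.34 to 3.07 in the PPH vehicle kidneys and from 2.37 to 2.54 at 1000 mg/kg; with it as a covariate, Slc2a2 differed by -0.57 (adjusted p = 0.0276). The mean of 7 macrophage markers on the array, of which C1qa was the brightest, was 6.31 to 6.53 in vehicle kidneys and 6.11 to 6.23 at 1000 mg/kg, and that of 7 fibroblast markers, led by Dcn, 7.91 to 8.40 and 7.59 to 7.89. Of these, 0 of 6 macrophage and 0 of 7 fibroblast genes tested had a difference above 0, and their part in the result was not tested. The mean of 8 hepatocyte markers, a cell type that carries Slc2a2, was 4.05 to 4.37 and 4.07 to 4.65, below the kidney filter value of 4.66 in every kidney of both groups. The part of hepatocyte RNA in the result was not tested either.

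**Figure D5:**
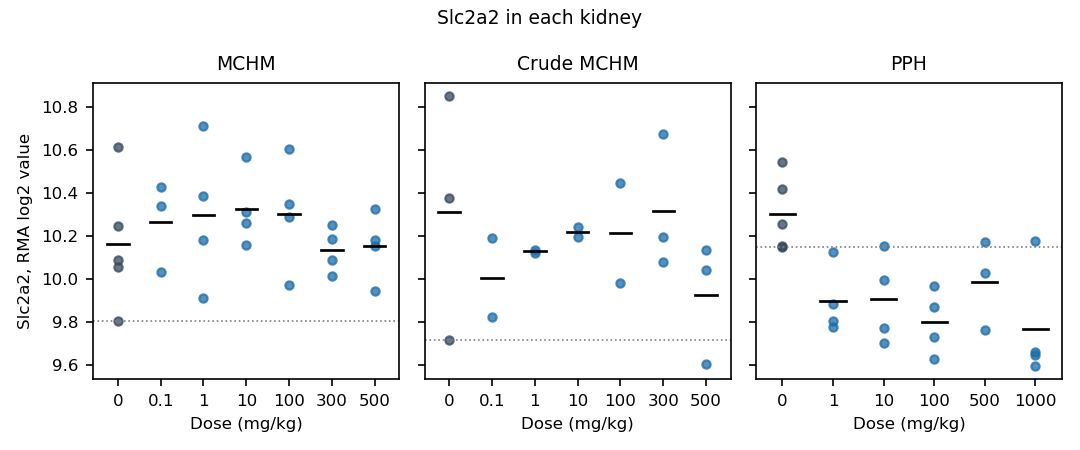
Log2 value of Slc2a2 in each kidney by dose (mg/kg) for the MCHM, crude MCHM and PPH sets; bars are group means and the dotted line is the lowest vehicle kidney of the set. In the PPH set 16 of 19 dosed kidneys lie below that line, against 0 of 23 in the MCHM set and 1 of 14 in the crude MCHM set. The line lies at 10.15 for PPH, 9.80 for MCHM and 9.71 for crude MCHM. Vehicle SDs are 0.17, 0.30 and 0.57 in that order, so these counts depend on vehicle spread. Below the vehicle mean lie 19 of 19, 8 of 23 and 12 of 14 dosed kidneys.

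The third comparison set the chemicals against each other at 14 matched doses, each as its change from its own vehicle. With limma, 0 of 30 members were called at any of them, with 0 to 12 members below an unadjusted 0.05. Over all genes, 453 to 1609 of 11501 were below an unadjusted 0.05. Among all 11501 genes, 0.0261% were called for MCHM against crude MCHM at 500 mg/kg, 0.0956% for crude MCHM against PPH at 500 mg/kg, and 0% in the other 12. For Slc2a2 the MCHM change exceeded the PPH change by 0.65 at 100 mg/kg (95% interval 0.18 to 1.11, adjusted p = 0.497) and by 0.31 at 500 mg/kg (95% interval -0.18 to 0.79, adjusted p = 0.86), so a difference between these chemicals was not shown for it. PPH at 1000 mg/kg had no matched dose.

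The lowest adjusted p of a member in these comparisons was 0.197, for Kcnj1 at 500 mg/kg MCHM against crude MCHM. The difference of changes was -0.998 (95% interval -1.69 to -0.31): -0.13 for MCHM and 0.86 for crude MCHM. The same pair of chemicals gave -1.22 for Kcnj1 at 1 mg/kg (95% interval -1.96 to -0.48, adjusted p = 0.286). At 500 mg/kg Slc12a3 gave 0.74, and both genes were called without the vehicle kidney Crude_MCHM-104, with -1.22 (adjusted p = 0.0474) for Kcnj1 and 0.99 (adjusted p = 0.0401) for Slc12a3. At matched doses of MCHM and crude MCHM, 8 to 13 of 30 members had a 95% interval of the difference within 1.5-fold either way. Over all genes the share was 67.7% to 77.5%. For most members the 2 preparations could thus neither be told apart nor be shown to act alike.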

How the data were processed

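Kidney and liver RNA of dosed and vehicle rats was measured on Affymetrix arrays. The deposited values are log2 signals summarised per probe set with RMA, per the submitters' processing notes; the RMA version is not given in the sources used here. Of 31099 probe sets, 20832 carried 1 gene symbol in the platform annotation, 436 carried several and 9831 were unnamed; the first group gave 14218 genes, each by its probe set brightest in kidney. Genes had to exceed the 40th percentile of the arrays compared (4.66 over kidneys, 4.68 over vehicle arrays of both tissues) in at least 3 arrays. Groups were compared with limma 3.58.1 (lmFit and eBayes, R 4.3.3) on the values as deposited, 1 fit per chemical for doses, 1 for vehicle arrays of both tissues (mean of the 3 sets) and 1 over all kidneys for matched doses. P-values were Benjamini-Hochberg adjusted over all genes tested and called below 0.05. Scripts were tested on simulated data. The number of arrays limits the precision.

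The members and lists were chosen with earlier results of these data known, and support nothing by their choice. All members are named; members called in a kidney comparison of doses are given by array. Of other nephron genes, those called could be named (at most 4 per list and comparison, by smallest adjusted p), and of lists for other cells the gene with the largest mean in kidney. Alternatives were the mean of probe sets, the probe set brightest over both tissues, no filter, quantile normalization, array weights, 1 fit for all chemicals, the shifted array included, each set alone, a replicate block and each array left out; 2 more, the beta-actin covariate and leaving out the 3 kidneys highest in fat cell markers, were added after seeing the data. Vehicle livers carry replicate numbers that kidneys also carry. Over 12 such pairs the correlation of deviations was 0.0402 to 0.234, above 0.1 in 7, so the numbers were not taken as pairs in the main fit. Yet all 12 kidneys correlated best with the liver of their own number, and the result with the replicate block is given below. Dosed livers were not analysed here.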

Additional observations from a re-analysis of the deposited data

Results flagged for a closer look

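In 434 groups of 4 to 10 arrays, 19 member values (4.38%) stood apart from the rest of their group by Dixon's ratio, where chance gives about 1 in 20 groups. The Slc2a2 value of PPH-234 at 1000 mg/kg, 10.17, lay above the other 3 kidneys (9.60 to 9.66), and the calls that turn on it are given with the Slc2a2 values. At the same dose PPH-233 was lowest in Lrp2 (12.35) and Slc26a4 (7.15) and highest in Slc12a3 (9.08). MCHM-36 at 300 mg/kg, which had the highest fat cell marker mean (10.05), was lowest in Umod (12.84, others 13.37 to 13.44) and Aqp1 (12.10, others 12.35 to 12.40); the part of the fat cell RNA in these values was not tested.

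Among other dosed kidneys, MCHM-27 was low in Aqp3 (9.20), PPH-223 in Nphs1 (5.76), PPH-210 in Slc5a1 (4.71) and PPH-214 in Trpv5 (4.38). MCHM-26 was high in Wt1 (6.68) and MCHM-37 in Pvalb (3.94, below the filter value). Among vehicle kidneys, PPH-202 was low in Scnn1b (7.16) and PPH-203 high in Slc9a3 (9.21). Among vehicle livers, PPH-205 was low in Avpr2 (3.57), Crude_MCHM-105 was high in Cldn16 (4.42) and Wt1 (4.67), Crude_MCHM-108 in Slc26a4 (5.32) and MCHM-4 in Slc12a3 (4.98).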

How the results depend on the processing

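Of 772 values of the member counts under alternatives, 757 stayed on the same side and within 1.5 times, and 1075 of 1077 single-member kidney and liver differences kept direction and call. Members lower in kidney numbered 1 in place of 2 with the mean of probe sets, in the crude MCHM set alone and in the PPH set alone, where Trpv5 did not pass the filter. Scnn1a turned to -0.23 with the probe set brightest over both tissues. With the replicate block, 28 members were higher and 2 lower, as without it; every one of the 12 pairs correlated best with its own number, a hint from the data. No paired analysis was possible for the dose comparisons because dosed and vehicle kidneys share no numbers. At 1000 mg/kg PPH 0 members were called with array weights (Slc2a2 adjusted p = 0.0508) and 0 in 1 fit for all chemicals (0.0675), and 0 to 1 with an array left out; the PPH slope and mean of all doses gave 0 to 1, with Slc2a2 called without PPH-234. Slc2a2 stayed called with both alternatives added after seeing the data. At 500 mg/kg crude MCHM 1 member, Avpr2 (0.55), was called with array weights. For MCHM against crude MCHM at 500 mg/kg 2 members, Kcnj1 and Slc12a3, were called with array weights (608 of all genes, against 3), and 0 to 2 with an array left out, the 2 without Crude_MCHM-104 (383 of all genes). The cause was not tested. Within sets alone, with fewer kidneys, r no longer passed for Nphs1 and Podxl (0.417 in crude MCHM, 0.295 in PPH), Slc12a3 and Calb1 (0.669 and 0.339), Slc34a1 and Nphs1 (0.179 in MCHM, 0.673 in crude MCHM, 0.300 in PPH) and Umod and Kcnj1 (0.327 in PPH).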
